A study of Mus musculus with 27 samples.

Results

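The interferon-stimulated genes described here are 35 named genes, chosen by symbol from those that interferons are known to induce, out of the 46078 genes counted. All 35 symbols were found, and 34 members had enough counts to be tested. The members fall into 15 antiviral effectors, 8 transcription factors and regulators of signalling, 4 sensors of foreign nucleic acid and 8 interferon-inducible GTPases. RNA-Seq of scraped distal ileal epithelium gave their levels in 27 male C57BL/6 mice. The mice were gavaged at 4 d intervals over 28 d with sesame oil vehicle or with the persistent AhR ligand TCDD (2,3,7,8-tetrachlorodibenzo-p-dioxin) at 0.01, 0.03, 0.1 and 0.3 or at 1, 3, 10 and 30 µg/kg, 3 mice per group, and were 56 d old at collection. The labels name no transgene or deletion. The ligand-activated factor AhR binds DNA at dioxin response elements (DRE), and its target *Cyp1a1* checked the labels: it lay between 0 and 0.211 counts per M counts (CPM) in the vehicle mice, between 516 and 647 CPM at 10 µg/kg and between 1062 and 2279 CPM at 30 µg/kg.

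Cells release interferons when they sense viral or bacterial nucleic acid. Type I interferons (α and β) and type III interferons (λ) act through the kinases JAK1 and TYK2 on STAT2 and IRF9, in a complex that binds the interferon-stimulated response element (ISRE). Type II interferon (γ), made by lymphocytes, acts at the γ-activated sequence (GAS). In the gut, epithelial cells respond strongly to interferon λ, and interferon γ induces the GTPases that attack the vacuoles of intracellular microbes.

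Promoter sequence was read for the 27 members that have an entry in the RefSeq promoter table (GRCm38.p6, 250 bases before to 50 bases after the transcription start). *Zbp1*, *Parp9*, *Parp14*, *Rtp4*, *Usp18*, *Oas2*, *Dhx58* and *Iigp1* have no entry there. The windows of 4 members are printed because their genes were lower at 30 µg/kg in company with a neighbour (*Igtp*, *Irgm2*, *Dtx3l*) or because they show the bare ISRE arrangement of an antiviral effector (*Isg15*). Capitals mark the letters searched for on both strands: GAAA, any 2 bases and GAAA for ISRE, TTC, any 3 bases and GAA for GAS, and GCGTG for the DRE core, which reads CACGC on the other strand.
Igtp: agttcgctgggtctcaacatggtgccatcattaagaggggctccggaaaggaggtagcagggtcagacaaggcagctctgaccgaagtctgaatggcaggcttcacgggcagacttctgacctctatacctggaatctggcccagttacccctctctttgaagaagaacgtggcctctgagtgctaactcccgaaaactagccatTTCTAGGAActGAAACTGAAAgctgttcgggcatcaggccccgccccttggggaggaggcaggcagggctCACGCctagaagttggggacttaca
Irgm2: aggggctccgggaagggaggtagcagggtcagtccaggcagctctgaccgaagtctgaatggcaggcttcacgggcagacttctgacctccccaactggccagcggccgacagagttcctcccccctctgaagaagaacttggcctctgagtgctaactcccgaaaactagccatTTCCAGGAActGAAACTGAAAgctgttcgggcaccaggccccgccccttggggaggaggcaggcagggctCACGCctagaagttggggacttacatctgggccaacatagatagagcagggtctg
Dtx3l: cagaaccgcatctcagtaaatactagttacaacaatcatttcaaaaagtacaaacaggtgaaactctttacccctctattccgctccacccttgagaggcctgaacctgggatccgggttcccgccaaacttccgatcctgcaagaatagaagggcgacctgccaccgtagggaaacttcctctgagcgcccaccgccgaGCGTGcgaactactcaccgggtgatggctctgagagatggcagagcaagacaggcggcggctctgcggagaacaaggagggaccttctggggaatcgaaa
Isg15: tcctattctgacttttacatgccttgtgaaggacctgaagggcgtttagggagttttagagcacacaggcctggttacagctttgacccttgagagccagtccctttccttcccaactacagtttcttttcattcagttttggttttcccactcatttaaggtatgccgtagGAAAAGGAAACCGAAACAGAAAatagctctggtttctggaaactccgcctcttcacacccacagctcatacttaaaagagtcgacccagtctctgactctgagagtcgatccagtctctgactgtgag
The *Igtp* window lies at chr11:58199306-58199605 (plus strand), *Irgm2* at chr11:58214727-58215026 (plus), *Dtx3l* at chr16:35938978-35939277 (minus) and *Isg15* at chr4:156200769-156201068 (minus). In *Igtp* the GAS starts 45 bases and the ISRE 34 bases before the transcription start, with a DRE core 25 bases after it. In *Irgm2* the same arrangement starts 75, 64 and 5 bases before the start. *Isg15* holds 3 overlapping ISRE, and *Dtx3l* holds a DRE core 50 bases before its start with neither interferon motif. An ISRE stood in 18 of the 27 members (66.7%) against 3.99% of the 27025 genes with a window, and in 7 of the 7 GTPases with a window. A GAS stood in 8 of the 27 (29.6%) against 9.55% of all genes. The DRE core stood in 11 of the 27 (40.7%) against 35.2% of all genes. These matches describe the letters in the windows and were not tested.

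In vehicle mice the members spanned a wide range of levels. Per length of exon, the highest was *Dtx3l*, a ubiquitin ligase that pairs with PARP9, at 54.0 ± 1.28 reads per kilobase and M counts (RPKM, mean ± SD, n = 3). It was followed by the transcription factor *Irf1* at 49.9 ± 3.71 RPKM and by the ADP-ribosyltransferase gene *Parp14* at 42.2 ± 2.17 RPKM. The gap between *Dtx3l* and *Irf1* was close to the SD of *Irf1*, so their order is not resolved. Among tested members the lowest was *Ifi44* at 0.726 ± 0.193 RPKM, after *Oas2* at 1.37 ± 0.216 RPKM. *Tgtp1*, a GTPase, held 0 to 15 counts per mouse and was not tested. Of its 50-base stretches 81.2% also occur in *Tgtp2* or *Gm12185*, so reads from them cannot be assigned to 1 gene, and how such reads were counted is not given in the sources used here. The same applies in part to *Oas1a* (57.6% shared with other *Oas1* genes) and to *Ifit3* (51.2% shared with *Ifit3b*), whose levels are uncertain for that reason.

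A gene was called at a Benjamini-Hochberg adjusted p of at most 0.05 in edgeR's quasi-likelihood test together with a fold change of at least 1.5. Against vehicle, edgeR called 0 members at the 4 lowest doses, where it called 0.0% of all 16741 genes tested, and 0 members at 1 µg/kg, where it called 0.591% of them. At an unadjusted p under 0.05 stood 2 of 34 members at each of the 4 lowest doses, against 4.18%, 3.53%, 6.19% and 7.45% of all genes in order of dose, and 6 members at 1 µg/kg, against 14.1%. DESeq2 called 0 members at the 4 lowest doses and 1 at 1 µg/kg. At 3 µg/kg 2 members were called, both lower, against 0.46% of all genes called lower. At 10 µg/kg 2 members were called, both higher, against 1.76% of all genes called higher. At 30 µg/kg 8 members were called, all of them lower, against 3.98% of all genes called lower. The median log2 fold change of the 34 tested members was -0.21 at 3 µg/kg, 0.39 at 10 µg/kg and -0.24 at 30 µg/kg, beside -0.0021, -0.0031 and 0.019 over all genes. These medians depended on single mice. In fits without 1 mouse, the median at 30 µg/kg ran from -0.50 (without mouse 67) to -0.049 (without mouse 65). It was -0.47 without vehicle mouse 3. At 10 µg/kg it ran from 0.17 (without mouse 59) to 0.51 (without mouse 58).

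**Figure D1:**
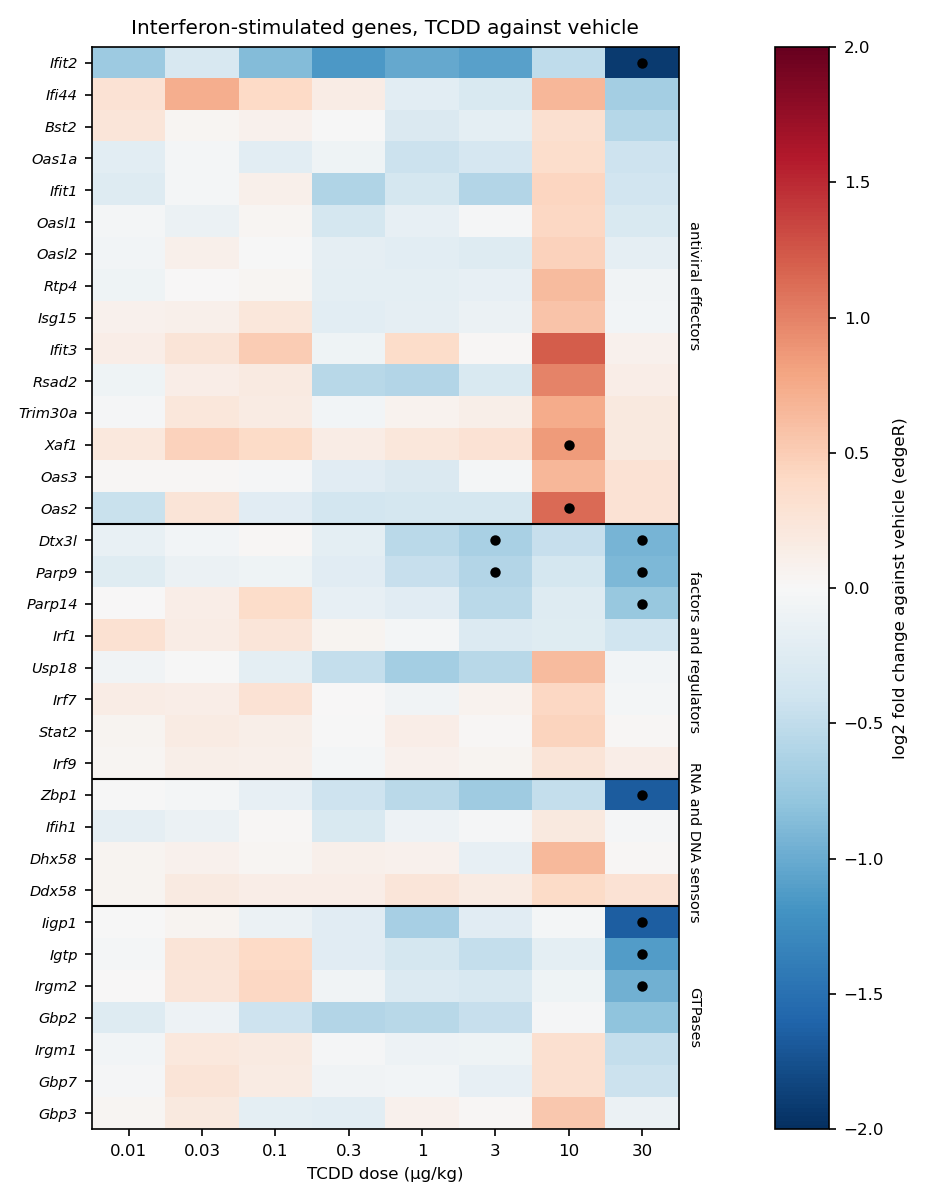
Log2 fold change of the 34 tested members (rows, grouped by role) at each TCDD dose against vehicle (columns), from red (higher) to blue (lower), with a black dot where a member was called. The column for 10 µg/kg is mostly red with dots at *Oas2* and *Xaf1*, and the column for 30 µg/kg holds 8 dots, each on a lower member.

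Among the factors and regulators, 3 of 8 were called lower at 30 µg/kg and 0 were called higher, beside 3.98% and 5.42% of all genes. *Parp9*, whose protein reads ADP-ribose and works with DTX3L, held 149, 143 and 144 CPM in the vehicle mice. It held 106, 109 and 102 CPM at 1 µg/kg, then 102, 97.4 and 91.6 CPM at 3 µg/kg, followed by 113, 107 and 121 CPM at 10 µg/kg, but 76.7, 78.4 and 79.0 CPM at 30 µg/kg. The mice given 30 µg/kg lay below every other mouse of the series, and the values at 10 µg/kg sat above those at 3 µg/kg. The log2 fold change was -0.59 ± 0.10 (SE) at 3 µg/kg (edgeR adjusted p = 0.00323) and -0.90 ± 0.10 at 30 µg/kg (edgeR adjusted p = 4.46e-06), a level 1.86-fold lower than in vehicle.

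*Dtx3l* was also lower at 3 and 30 µg/kg. It held 316, 302 and 309 CPM with vehicle, 212, 205 and 176 CPM at 3 µg/kg, followed by 225, 205.5 and 239 CPM at 10 µg/kg, but 149.7, 161 and 176 CPM at 30 µg/kg. The mice given 3 µg/kg overlapped those given 10 µg/kg and those given 30 µg/kg. The log2 fold change was -0.65 ± 0.11 at 3 µg/kg (edgeR adjusted p = 0.00317), -0.47 ± 0.11 at 10 µg/kg (edgeR adjusted p = 0.0185, below the fold limit) and -0.93 ± 0.11 at 30 µg/kg (edgeR adjusted p = 7.81e-06). *Parp9* and *Dtx3l* lie head to head on chromosome 16 and overlap by 682 bases, where reads could not be given to either gene if counting ignored strand. The calls at 3 µg/kg sat close to the fold limit: without mouse 52 (3 µg/kg) the value was -0.54 for *Parp9* and -0.56 for *Dtx3l*, under the limit, and *Parp9* also fell under it without vehicle mouse 2 (-0.57) or vehicle mouse 4 (-0.58).

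*Parp14*, on the same stretch of chromosome 16, encodes an ADP-ribosyltransferase that acts on STAT signalling. Its level was 389, 374.5 and 414 CPM with vehicle, between 317 and 598 CPM at doses up to 0.1 µg/kg, and 184.5, 262 and 252 CPM at 30 µg/kg. Its log2 fold change at 30 µg/kg was -0.75 ± 0.16 (edgeR adjusted p = 0.00222). The other 5 factors were not called at any dose. *Irf1*, an early interferon γ target, held 210, 182 and 204 CPM with vehicle and 141.5, 151.5 and 160.3 CPM at 30 µg/kg. The groups did not overlap, and its log2 fold change of -0.39 ± 0.15 had an edgeR adjusted p of 0.0805. *Stat2* and *Irf9*, subunits of the complex that binds ISRE, had log2 fold changes of 0.02 and 0.13 at 30 µg/kg. At 10 µg/kg *Stat2* held 118, 99.8 and 116 CPM against 82.2, 80.7 and 83.0 CPM in vehicle, a log2 fold change of 0.44 ± 0.11 below the fold limit (edgeR adjusted p = 0.0213).

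Among the nucleic acid sensors, *Zbp1* was called at 30 µg/kg and the 3 RNA helicases *Ifih1*, *Ddx58* and *Dhx58* were not. *Zbp1*, which recognises the left-handed Z form of RNA and DNA and can trigger necroptosis, held 1421, 795 and 1557 counts in vehicle mice, or 58.3 to 108 CPM. It held 61.2, 60.4 and 70.0 CPM at 10 µg/kg but 31.9, 22.6 and 29.5 CPM at 30 µg/kg. The 3 mice given 30 µg/kg were below all 24 others, of which the lowest stood at 43.2 CPM. The log2 fold change was -1.66 ± 0.24, a level 3.17-fold lower (edgeR adjusted p = 6.74e-05). The helicases, which sense viral double-stranded RNA, had log2 fold changes of -0.02 (*Ifih1*), 0.28 (*Ddx58*) and 0.02 (*Dhx58*) at 30 µg/kg.

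Of the 7 GTPases tested, 3 were called lower at 30 µg/kg, beside 3.98% of all genes. The other 4 had negative values, and the median log2 fold change of the 7 was -0.80. *Iigp1* held 16.1, 6.82 and 11.8 CPM with vehicle and 4.01, 2.71 and 4.40 CPM at 30 µg/kg, a log2 fold change of -1.64 ± 0.42 (edgeR adjusted p = 0.00919). Its 3 mice at 10 µg/kg spread over 12.3, 16.4 and 5.09 CPM. The *Iigp1* call was lost without vehicle mouse 2 (edgeR adjusted p = 0.0545) and without mouse 67 at 30 µg/kg (edgeR adjusted p = 0.062). *Igtp* held 51.2, 26.6 and 50.0 CPM with vehicle and 15.1, 19.7 and 24.6 CPM at 30 µg/kg, a log2 fold change of -1.11 ± 0.27 (edgeR adjusted p = 0.00556). *Igtp* was the one call at 30 µg/kg that a fit of only the vehicle and 30 µg/kg mice did not make (edgeR adjusted p = 0.0535).

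*Irgm2*, next to *Igtp* and sharing the promoter arrangement printed above, held 61.9, 42.2 and 71.3 CPM with vehicle and 25.6, 31.8 and 32.4 CPM at 30 µg/kg. Its log2 fold change was -0.97 ± 0.21 (edgeR adjusted p = 0.00275). The gene models of *Igtp* and *Irgm2* overlap by 7974 bases on chromosome 11, and 11.8% and 7.77% of their 50-base stretches are shared, so the pair does not count as fully separate measurements. *Irgm1*, a regulator of the effector GTPases, held 52.9, 35.6 and 51.1 CPM with vehicle and 35.5, 31.5 and 33.1 CPM at 30 µg/kg, a log2 fold change of -0.48 ± 0.16 below the fold limit (edgeR adjusted p = 0.045). The guanylate-binding proteins *Gbp2*, *Gbp7* and *Gbp3* had log2 fold changes of -0.80 (edgeR adjusted p = 0.0543), -0.43 and -0.12.

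Among the 15 antiviral effectors, 1 was called lower at 30 µg/kg and 2 were called higher at 10 µg/kg, beside 3.98% and 1.76% of all genes. *Ifit2*, which binds RNA and restrains translation, held 16.8, 7.92 and 19.9 CPM with vehicle, 8.70, 9.90 and 12.9 CPM at 10 µg/kg, then 3.94, 3.09 and 4.80 CPM at 30 µg/kg. The 3 mice given 30 µg/kg were below the vehicle mice, and one mouse at 0.3 µg/kg stood at 4.56 CPM. Group means of *Ifit2* at the doses up to 10 µg/kg, 6.74 to 12.0 CPM, were also below the vehicle mean of 14.9 CPM. The log2 fold change at 30 µg/kg of -1.92 ± 0.32 was a 3.78-fold lower level (edgeR adjusted p = 0.000244). *Bst2*, or tetherin, which holds budding virus at the cell surface, held 8.38, 6.97 and 6.85 CPM with vehicle and 5.23, 4.56 and 5.21 CPM at 30 µg/kg, a log2 fold change of -0.56 ± 0.16 below the fold limit (edgeR adjusted p = 0.0168). *Oas1a* held 14.6, 14.8 and 17.4 CPM with vehicle against 8.38, 13.6 and 13.4 CPM at 30 µg/kg, without a call (edgeR adjusted p = 0.165). In all, the vehicle and 30 µg/kg mice did not overlap for 12 of 34 members, each lower, against 13.3% of all genes.

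**Figure D2:**
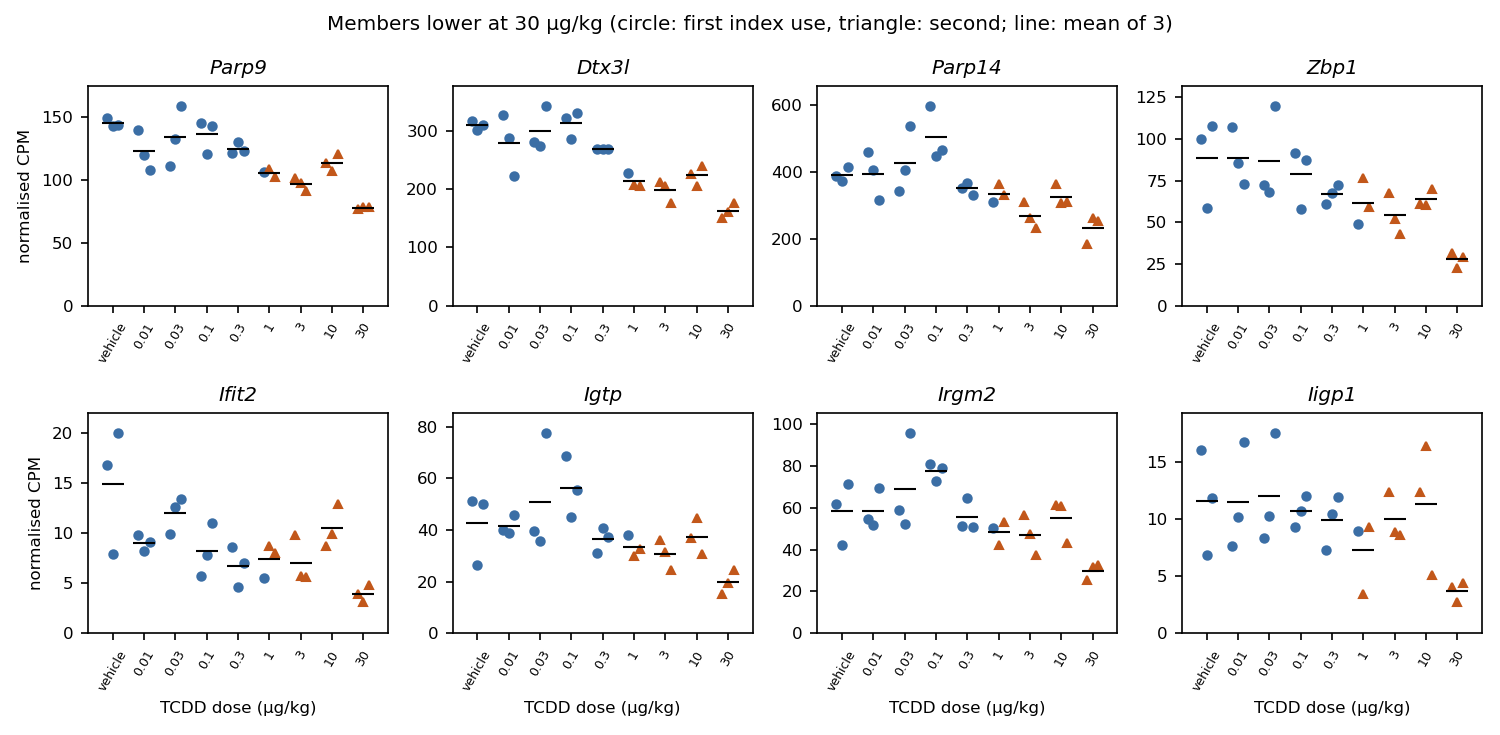
Normalised CPM (y axis, from 0) in each of 27 mice by TCDD dose (x axis) for the 8 members called lower at 30 µg/kg. Circles are mice with a first and triangles mice with a second use of a library index, and lines are means of 3 mice. The 3 mice at 30 µg/kg lie below the vehicle mice in each panel. In some panels, among them *Zbp1*, *Parp9* and *Irgm2*, they lie below all 24 other mice.

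At 10 µg/kg, 14 of 15 effectors had positive values, against 49.6% of all genes, and *Ifit2* was the exception. The median log2 fold change of the 15 was 0.64. *Oas2*, an oligoadenylate synthetase that activates the antiviral nuclease RNase L, held 6.05, 5.14 and 7.06 CPM with vehicle and 12.4, 7.26 and 20.8 CPM at 10 µg/kg. It returned to 5.09, 11.2 and 6.03 CPM at 30 µg/kg. The log2 fold change at 10 µg/kg was 1.14 ± 0.32 (edgeR adjusted p = 0.0426). *Xaf1*, an interferon-induced promoter of apoptosis, held 11.7, 5.87 and 9.76 CPM with vehicle and 15.5, 14.5 and 19.7 CPM at 10 µg/kg, a log2 fold change of 0.86 ± 0.22 (edgeR adjusted p = 0.0258). *Ifit3* had a log2 fold change of 1.21 ± 0.35 and missed the call (edgeR adjusted p = 0.0501).

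The calls at 10 µg/kg leaned on single mice. Without mouse 59 the log2 fold change was 0.67 for *Oas2* (edgeR adjusted p = 0.326) and 0.71 for *Xaf1* (edgeR adjusted p = 0.148). *Oas2* was called without mouse 58 alone, with an adjusted p of 0.0789 without mouse 57 and of 0.0923 to 0.145 when a vehicle mouse was left out (edgeR). *Xaf1* was called without mouse 58 or vehicle mouse 2, and its adjusted p was 0.132 without vehicle mouse 3, 0.0741 without vehicle mouse 4 and 0.0503 without mouse 57 (edgeR). At 10 µg/kg the groups did not overlap for 11 members that were higher and 3 that were lower, against 11.5% and 11.8% of all genes. Fits of only the vehicle and 10 µg/kg mice called 0 members.

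**Figure D3:**
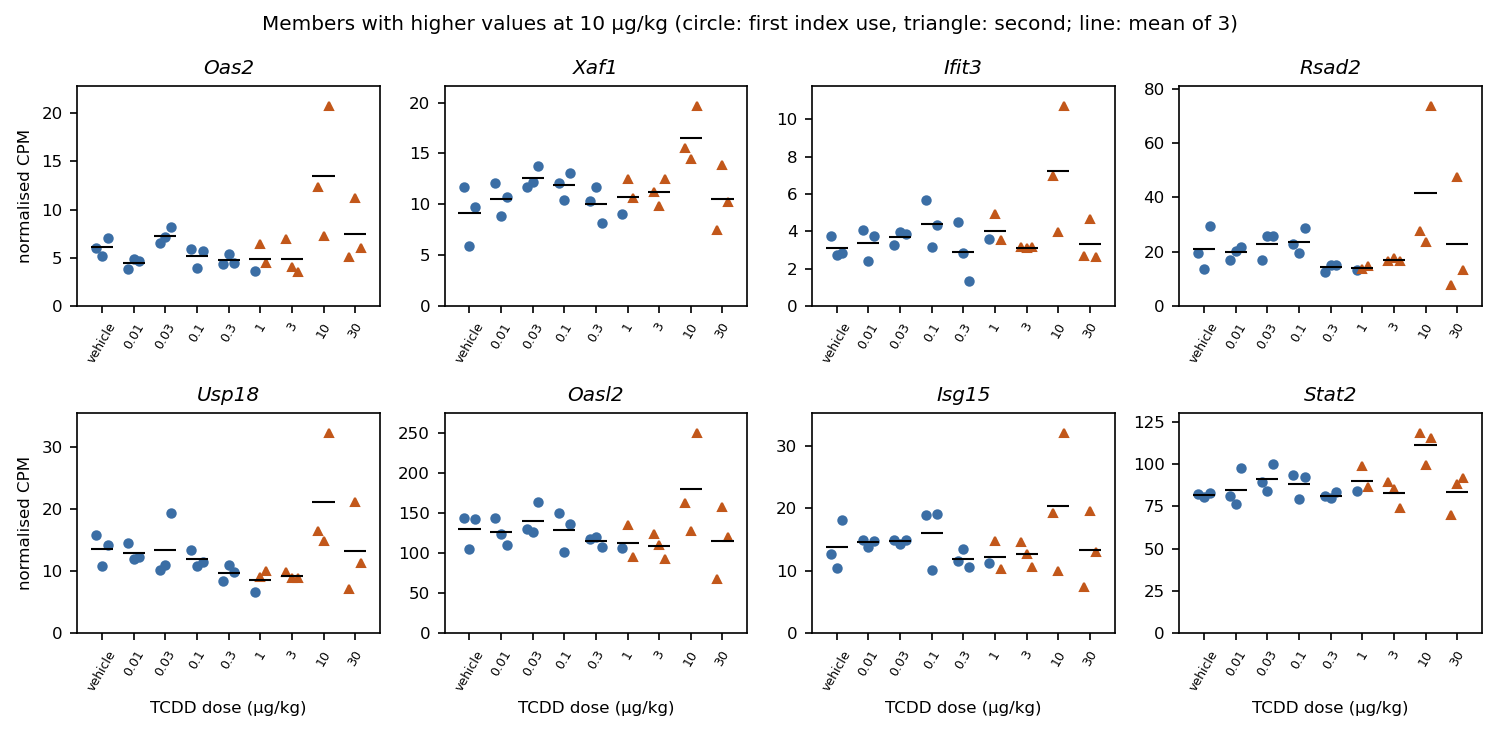
Normalised CPM (y axis, from 0) in each of 27 mice by TCDD dose (x axis) for *Oas2*, *Xaf1* and 6 other members with higher means at 10 µg/kg. Circles and triangles mark the first and second use of a library index and lines are means of 3 mice; *Rsad2* stood at 73.6 CPM in mouse 59 (10 µg/kg) and 47.6 CPM in mouse 67 (30 µg/kg), while the other 25 mice stayed between 7.59 and 29.6 CPM.

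Mice given the same dose could differ widely in effector levels, and the roles differed within a mouse. *Rsad2*, the antiviral enzyme viperin, held 27.7, 23.4 and 73.6 CPM at 10 µg/kg but 7.59, 47.6 and 13.2 CPM at 30 µg/kg. In mouse 59 (10 µg/kg) 14 of 15 effectors lay above all vehicle mice, with a median log2 difference from the vehicle mean of 1.12, while the median of the GTPases was -0.40. In mouse 67 (30 µg/kg) 10 of 15 effectors lay above all vehicle mice, with a median of 0.53, while 6 of 7 GTPases lay below them, with a median of -0.84. In mouse 65 (30 µg/kg) 13 effectors and 7 GTPases lay below all vehicle mice, with medians of -0.85 and -1.01. The medians of effectors and GTPases thus stood on opposite sides of the vehicle mean in mice 59 and 67 and on the same side in mouse 65. In mouse 59, however, 2 of 7 GTPases lay above all vehicle mice and 2 below them. Its GTPase median also lay within those of the vehicle mice themselves, which ran from -0.44 to 0.34.

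**Figure D4:**
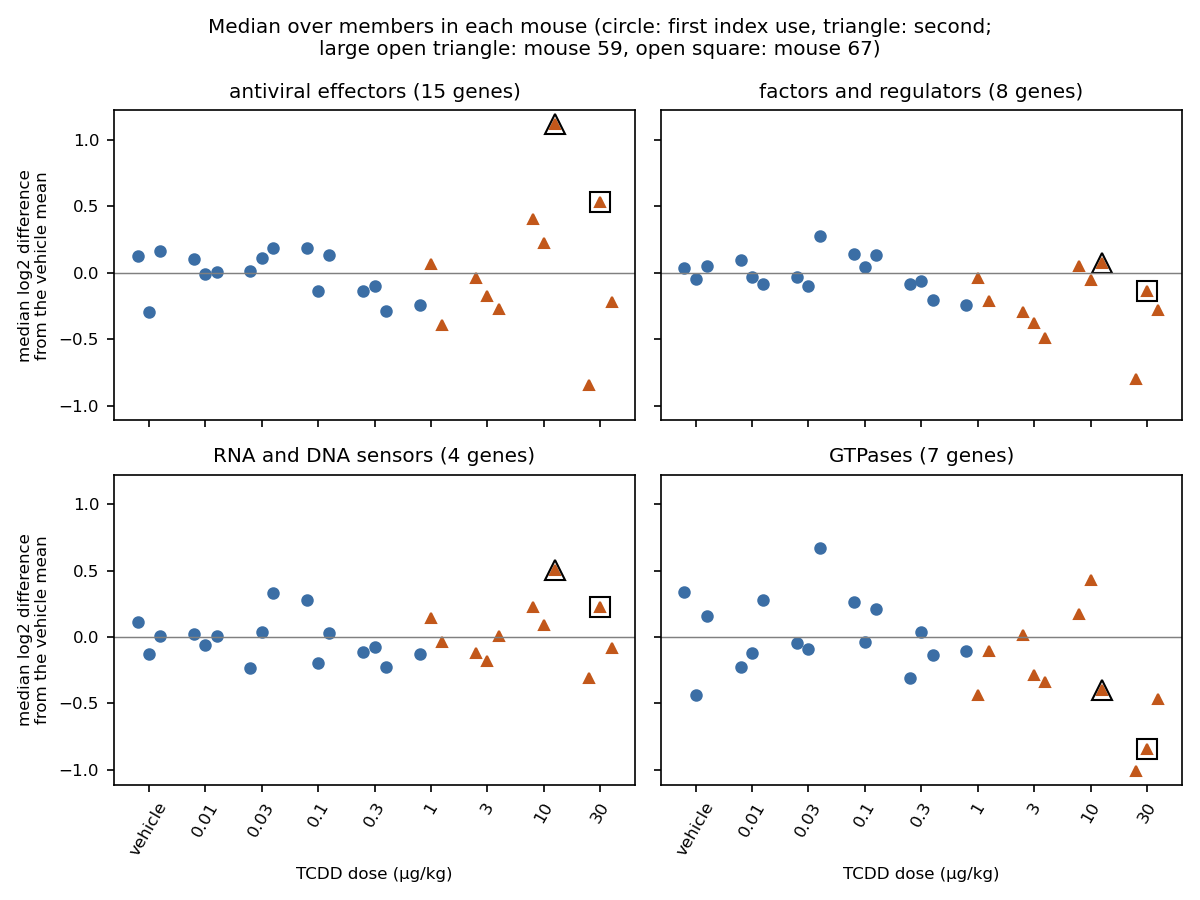
Median log2 difference from the vehicle mean over the members of each role (y axis) in each of 27 mice by TCDD dose (x axis), with circles and triangles for the first and second use of a library index. Mouse 59 (large open triangle) and mouse 67 (open square) stand at 1.12 and 0.53 for effectors but at -0.40 and -0.84 for GTPases. The vehicle mice stand between -0.44 and 0.34 for GTPases.

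Members also varied together among mice given the same dose. After each group's mean was subtracted, the median Pearson correlation over the 561 pairs of tested members was 0.346 across the 27 mice, against -0.003 over all pairs of genes tested. It was 0.768 over the 21 pairs of GTPases and 0.653 over the 105 pairs of effectors. These values describe the same libraries and share their normalization, and no test was made. Pairs that share sequence or overlap, such as *Igtp* and *Irgm2*, are among them.

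The 3 highest doses were also compared with each other. The comparison of 30 with 3 µg/kg was planned and called 0 members, against 0.89% of all genes called, with 9 members at an unadjusted p under 0.05 against 13.4% of all genes (edgeR) and 2 called by DESeq2. The comparisons of 30 with 10 and of 10 with 3 µg/kg were added after the values were seen. Between 10 and 30 µg/kg, 34 of 34 members had negative values, where 51.0% of all genes had positive ones, and the median log2 fold change was -0.69 beside 0.0056 over all genes. Called lower were 4 members, against 0.143% of all genes: *Bst2* (-0.88 ± 0.16, edgeR adjusted p = 0.0196), *Zbp1* (-1.19 ± 0.24, 0.0268), *Irgm1* (-0.79 ± 0.16, 0.0268) and *Ifit2* (-1.41 ± 0.32, 0.0484). Of these 4 genes, 0 were called without mouse 59, 67 or 68, *Bst2* alone was called without mouse 57 or 58, and all 4 were called without mouse 65. The count of members called, these or others, ranged from 0 without mouse 67 or 68 to 8 without mouse 65, with 1 without mouse 57, 3 without mouse 58 and 1 without mouse 59. A fit of only these 6 mice also called 0.

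Between 3 and 10 µg/kg, 34 of 34 members had positive values, against 51.0% of all genes, with a median log2 fold change of 0.50. The test called 0 members, against 0.0418% of all genes called higher, with 20 members at an unadjusted p under 0.05 against 6.51% of all genes (edgeR) and 1 called by DESeq2. The largest value was that of *Oas2*, at 1.49 ± 0.32 (edgeR adjusted p = 0.136). The mice given 10 µg/kg enter both comparisons with opposite sign, so the values are set side by side and their opposite directions are not separate results.

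**Figure D5:**
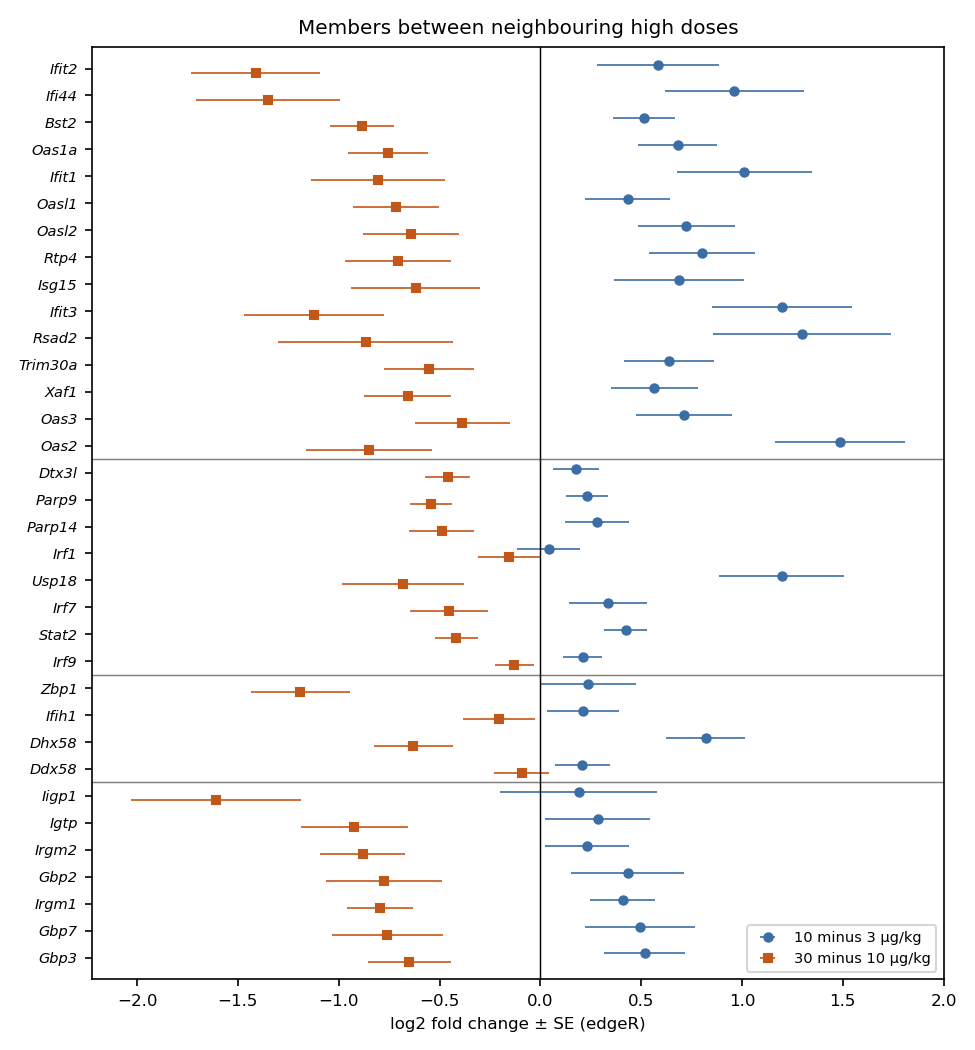
Log2 fold change ± SE (x axis) of the 34 tested members (y axis, grouped by role) for 10 minus 3 µg/kg (blue circles) and 30 minus 10 µg/kg (orange squares), which share the 3 mice given 10 µg/kg. The circles lie between 0.04 and 1.49 and the squares between -1.61 and -0.09.

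Over the rank of the dose across all 27 mice, edgeR found a trend at an adjusted p of at most 0.05 for 9 of 34 members, a share close to the 26.2% of all genes. Of these members 8 fell, beside 12.8% of all genes called falling, and *Ddx58* rose, beside 13.4% called rising. The steepest slope was that of *Zbp1*, at -0.15 ± 0.03 log2 units per dose step (edgeR adjusted p = 0.000114). The other members that fell were *Ifit2*, *Igtp*, *Dtx3l*, *Parp14*, *Irgm2*, *Parp9* and *Irf1*.

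Uses of each library index were numbered here in mouse order, and mouse numbers rose with dose. By that rule first uses fell on the lower doses. Each index sequence was used for up to 2 mice. Taken in mouse order, the 16 first uses held the vehicle mice, the doses up to 0.3 µg/kg and mouse 41 at 1 µg/kg, and the 11 second uses held the rest. What a second use stands for is not given in the sources used here. Mouse 41, a first use, was below the 15 other mice with a first use for 3 of the 8 members called at 30 µg/kg: *Parp9* (106 CPM against 108 to 159), *Parp14* (310 CPM against 317 to 598) and *Zbp1* (49.1 CPM against 58.0 to 119.6). It was below 14 of the 15 for *Dtx3l*, *Irgm2* and *Ifit2* and below 11 for *Igtp* and *Iigp1*. With index use as a covariate, 4 members were called at 30 µg/kg (edgeR): *Ifit2* at -2.51 (adjusted p = 0.0172), *Zbp1* at -2.13 (0.0106), *Parp9* at -0.89 (0.0141) and *Dtx3l* at -0.79 (0.038). The other 4 had values of -0.83 to -1.18 (edgeR adjusted p of 0.0935 to 0.449). Within the first uses alone and within the second uses alone, the trend was called for 0 members. At 3 and at 10 µg/kg 0 members were called with this covariate. Of the 9 groups, that of 1 µg/kg alone held both uses. In the fits of groups, here and below, this covariate was therefore estimated from mouse 41 against mice 43 and 44. Calls kept or lost with it cannot separate index use from dose.

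The clock genes of the same scrapings also moved with dose. A score over 11 clock genes lay between -1.25 and -1.06 in vehicle mice and between 1.17 and 1.34 at 30 µg/kg, with 0.978 to 1.31 at 10 µg/kg, and the clock output gene *Dbp* had log2 fold changes of 6.31 at 10 µg/kg and 6.29 at 30 µg/kg. Mouse 14, given 0.01 µg/kg, had a score of 0.761, and was compared with the other first-use mice given vehicle or up to 0.3 µg/kg. Of the 8 members called at 30 µg/kg it held the lowest level of these 15 mice for 3, *Parp9* (108 CPM), *Dtx3l* (222 CPM) and *Parp14* (317 CPM). For *Ifit2* and *Zbp1* it stood in the middle, with 7 mice above it and 7 below, for *Igtp* and *Irgm2* 5 were above it and 9 below, and for *Iigp1* it was exceeded by 1 mouse. With the clock score as a covariate, 0 members were called at any dose (edgeR). At 30 µg/kg the 8 members kept negative values, from -0.15 for *Parp14* to -2.77 for *Iigp1*, with adjusted p from 0.218 to 0.864 (edgeR). The clock score and a dose of 30 µg/kg cannot be told apart against vehicle. Between 10 and 30 µg/kg, where the scores overlap, 3 of the 4 members were still called with this covariate. In the fits of groups, however, this covariate was estimated from differences among mice of the same dose. The widest such difference was at 0.01 µg/kg, where mouse 14 stood at 0.761 and the others at -1.232 and -0.982. Calls kept or lost with the clock score therefore cannot separate it from dose.

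The ligands themselves were at or near the limit of detection. Of 21 interferon genes, 16 had no count in any of the 27 mice, among them *Ifnb1* and all listed α genes. *Ifng* had 88 counts over 24 mice, at most 9 in one mouse, and *Ifnl2* had 2 counts, both in mouse 59. The libraries held 12.26 to 17.14 M counts on genes. A count of 0 allows an expected count of up to 3 at the 95% level, so low ligand transcription was not detectable at this depth.

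The receptors were measured and not called at single doses. The 6 receptor genes had positive values at 30 µg/kg, with a median log2 fold change of 0.13, and 0 were called at any of 3, 10 and 30 µg/kg. *Ifnar1* and *Ifnar2*, the type I receptor chains, had log2 fold changes of 0.02 ± 0.08 and 0.01 ± 0.20. *Ifngr1* and *Ifngr2*, the interferon γ receptor chains, had 0.09 ± 0.12 and 0.19 ± 0.11. *Ifnlr1*, the chain that defines the interferon λ receptor, had 0.17 ± 0.15 (edgeR adjusted p = 0.478). *Il10rb*, its partner chain, which also serves other cytokines, had the highest value, 0.31 ± 0.13 (edgeR adjusted p = 0.0856), and was the 1 receptor gene called in the trend over dose, rising by 0.04 ± 0.01 log2 units per dose step (edgeR adjusted p = 0.00329).

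Among 14 signalling genes, 3 were called lower at 30 µg/kg and 0 higher, beside 3.98% and 5.42% of all genes. Of the 14, 7 had positive and 7 negative values, and 9 passed the adjusted p alone. *Socs1*, a feedback inhibitor of JAK kinases, held 16.0, 9.32 and 19.3 CPM with vehicle and 4.66, 4.72 and 5.54 CPM at 30 µg/kg, a log2 fold change of -1.58 ± 0.28 (edgeR adjusted p = 0.000402). *Irf8*, an interferon γ-responsive factor, held 223, 190.3 and 203 CPM with vehicle and 144, 83.5 and 92.5 CPM at 30 µg/kg, a log2 fold change of -0.94 ± 0.16 (edgeR adjusted p = 0.000312). *Socs3*, another inhibitor of the family, had -0.88 ± 0.24 (edgeR adjusted p = 0.0127). *Irf3*, which induces interferon genes once a sensor has fired, had 0.10 ± 0.08. Of 12 genes upstream of interferon production, 1 was called lower at 30 µg/kg and 0 higher, beside the same shares of all genes. It was *Tmem173*, which encodes the DNA-sensing adaptor STING (-0.95 ± 0.28, edgeR adjusted p = 0.0225). In the fit with index use as a covariate and in that with the clock score, 0 of *Socs1*, *Irf8*, *Socs3* and *Tmem173* were called.

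Of 12 genes of MHC class I antigen presentation, 4 were called lower at 30 µg/kg, beside 3.98% of all genes, and 10 of 12 had negative values. *Tap1*, a subunit of the peptide transporter, held 152, 140.5 and 146 CPM with vehicle, 133, 127.5 and 134.5 CPM at 10 µg/kg, but 86.2, 76.0 and 88.4 CPM at 30 µg/kg, a log2 fold change of -0.81 ± 0.14 (edgeR adjusted p = 0.000278). The immunoproteasome subunits *Psmb9*, *Psmb8* and *Psmb10* had log2 fold changes of -0.77 ± 0.16, -0.70 ± 0.12 and -0.59 ± 0.10 (edgeR adjusted p of 0.00187, 0.000288 and 0.00021). With index use as a covariate *Psmb10* alone of these was called, and with the clock score 0 were.

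Of 58 further interferon-induced genes, 54 were tested, and at 30 µg/kg 6 were called lower and 2 higher, beside the 3.98% and 5.42% of all genes called lower and higher. The 2 called higher are a smaller share of the 54 than that over all genes. *Gbp6*, a guanylate-binding protein, held 9.57, 5.94 and 8.17 CPM with vehicle and 2.22, 1.86 and 2.61 CPM at 30 µg/kg, a log2 fold change of -1.82 ± 0.30 (edgeR adjusted p = 0.000224). *Ifi47*, an immunity-related GTPase, held 56.6, 38.9 and 59.5 CPM with vehicle and 14.5, 16.3 and 25.7 CPM at 30 µg/kg (-1.46 ± 0.21, edgeR adjusted p = 4.19e-05). Higher were the T cell chemokine gene *Cxcl11*, at 1.55, 2.49 and 1.04 CPM with vehicle and 5.01, 5.11 and 4.07 CPM at 30 µg/kg (1.48 ± 0.37, edgeR adjusted p = 0.00716), and *Ifit3b* (1.32 ± 0.38, edgeR adjusted p = 0.0175), at 0.282 to 0.587 CPM with vehicle and 0.788 to 1.38 CPM at 30 µg/kg and with sequence shared with *Ifit3*. In each of the fits with index use and with the clock score, 0 of these 4 were called. Of the 54, 2 were called higher and 2 lower at 10 µg/kg, beside 1.76% and 0.771% of all genes.

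The scrapings held immune and muscle transcripts beside epithelial ones, and in bulk tissue fewer cells of a type cannot be told apart from less RNA per cell. At 30 µg/kg, 3.98% of all genes were called lower and 5.42% higher, and 13.7% were higher than vehicle without overlap. Of 4 plasma cell markers tested, 2 were called lower at 30 µg/kg (*Jchain*, -1.61 ± 0.34, and *Mzb1*, -1.43 ± 0.31; edgeR adjusted p of 0.00195 and 0.00287), and the list's summed level was 357 to 484 CPM with vehicle, 260 to 293 CPM at 10 µg/kg but 209 to 299 CPM at 30 µg/kg. Of 10 macrophage and dendritic cell markers, *Itgam* was called lower (-1.78 ± 0.19, edgeR adjusted p = 1.98e-06), and the sum was 119 to 156 CPM with vehicle and 93.5 to 122 CPM at 30 µg/kg. Of 9 T lymphocyte markers 0 were called at 30 µg/kg, with sums of 281 to 326 CPM with vehicle and 197 to 327 CPM at 30 µg/kg. The summed smooth muscle level ranged from 23.5 to 102 CPM with vehicle, 42.8 to 356 CPM at 10 µg/kg but 34.9 to 322 CPM at 30 µg/kg, with 0 of 5 markers called. The 8 epithelial markers summed to 12700 to 13300 CPM with vehicle and 11400 to 14700 CPM at 30 µg/kg, with *Fabp6* called lower (-0.94 ± 0.25) and *Slc10a2* higher (0.75 ± 0.24; edgeR adjusted p of 0.012 and 0.034). All 4 goblet cell markers were higher at 30 µg/kg without overlap, though below the fold limit, with log2 fold changes of 0.44 to 0.49 (edgeR adjusted p of 0.000452 to 0.0154), and all 4 were called rising in the trend. Their sum was 20700 to 23400 CPM with vehicle, 26600 to 31000 CPM at 10 µg/kg, then 29100 to 31700 CPM at 30 µg/kg. No marker of these lists was at 0 in every mouse of a group. The part of these cell types in the members' values was not tested.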

How the data were processed

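Ileal epithelium of 27 mice was profiled with 1 RNA-Seq library per mouse. The authors trimmed reads with Trimmomatic 0.33, aligned them with TopHat2 2.1.0 to GRCm38 and deposited whole-number counts per Ensembl gene, without normalization; per the labels HTSeq 0.6.1 was used, and its options are not given in the sources used here. Rows that name no gene stayed out of library sizes, and reads that aligned once but matched no feature made up 44.48% to 49.52% of those aligned once. Counts on genes were 12.26 to 17.14 M per mouse (median 14.14 M), so sampling adds visibly to the spread of members with under 100 counts per mouse. Genes were matched to symbols by Ensembl identifier in GENCODE (45143 of 46078).

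edgeR 4.0.16 in R 4.3.3 kept 16741 genes by filterByExpr, scaled them by TMM and fitted a quasi-likelihood model with 9 groups and no covariate. Genes were called at a Benjamini-Hochberg adjusted p of at most 0.05 over all genes tested and a fold change of at least 1.5, and trends over dose rank by adjusted p alone. CPM values are TMM-normalised, and log2 values carry a prior count of 2. An exact permutation test of 3 against 3 mice cannot go below p = 0.1. The 27 pairs of mice within groups differed beyond sampling noise, by a chi-square over genes divided by its degrees of freedom. The largest values were those of mouse 65 (30 µg/kg), at 74.26 with mouse 67 and 45.51 with mouse 68. All other pairs lay between 6.99 and 22.55. Mice shared cages, which the labels do not give, so p-values treat mice as independent. The fits were also run on simulated counts with known changes at 30 µg/kg. Apart from those changes each gene had the same mean level in every mouse. That run therefore did not cover single deviating mice, the clock shift or index use.

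The members and all gene lists were chosen with earlier results of these data known. Every member is accounted for; members called at any dose are given by mouse, others by range, with values for those whose vehicle and 30 µg/kg mice did not overlap, and each other list by counts, with preset genes and up to 4 called genes of largest change. Alternatives were DESeq2 1.42.0, upper-quartile scaling, library size alone, no filter, at least 10 counts in every mouse, fits of only the groups compared, index use or a clock score as covariate, adjusted p alone, and leaving out each mouse. Epithelium, B cell, NK cell, fibroblast, endothelial, Paneth and goblet cell lists were also fitted: at 30 µg/kg 0 of 4 B cell, 0 of 2 NK cell, 0 of 4 fibroblast, 1 of 4 endothelial (*Vwf*, higher), 0 of 4 Paneth cell and 0 of 4 goblet cell markers tested were called, of which the 4 goblet cell markers passed the adjusted p but not the fold limit. 1 listed gene is not reported here.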

Additional observations from a re-analysis of the deposited data

How the results depend on the processing

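Counts of called members rest on 3 mice per dose, and low counts, shared sequence and the alignment of dose with index use and clock score limit them. No paired analysis was possible because the labels give mouse numbers that groups do not share. The 8 members called at 30 µg/kg were called in full by DESeq2, upper-quartile scaling, library size alone, no filter and the 10-count filter, and the count when a mouse was left out ran from 7 to 11. With index use as a covariate the counts were 4 at 30, 0 at 10 and 0 at 3 µg/kg and 1 for the trend, and with the clock score 0, 0, 0 and 0. Trends within the first or the second index use gave 0. At 0.3 µg/kg no filter gave 1, and at 1 µg/kg DESeq2 gave 1, no filter 1 and adjusted p alone 2, with 0 to 1 over mice left out. At 3 µg/kg library size alone gave 4, no filter 4, the 10-count filter 1 and the fit of 2 groups 1, with 0 to 4 over mice left out. At 10 µg/kg DESeq2 gave 5, no filter 5, the fit of 2 groups 0 and adjusted p alone 4, with 0 to 6 over mice left out. For 30 against 3 µg/kg DESeq2 gave 2, library size alone 1, no filter 3 and the 10-count filter 1, with 0 to 1 over mice left out. For 30 against 10 µg/kg DESeq2 gave 9, library size alone 9, no filter 10 and the fit of 2 groups 0, with 0 to 8 over mice left out. For 10 against 3 µg/kg DESeq2 gave 1 and no filter 2, with 0 to 2 over mice left out. The trend count was 8 to 11 over mice left out. Scaling by library size moved the median of all genes at 30 µg/kg from 0.019 to -0.111 and the members from 24 to 29 negative values. Signs turned as follows: *Oas2* at 30 µg/kg (0.29) was -0.27 with index use and -0.13 to 0.47 over mice left out, lowest without mouse 67, *Xaf1* at 30 µg/kg (0.20) was -0.15 with index use and -0.062 to 0.41 over mice left out, lowest without vehicle mouse 3 and at -0.053 without mouse 67, and the inflammatory caspase gene *Casp4* at 30 µg/kg (-0.90) was 0.097 with the clock score. The trend slope of *Parp14* (-0.0965 log2 units per dose step) was 0.014 with the clock score, and the other 8 members called in the trend kept their sign. The causes were not tested.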
